A study of Mus musculus with 2 samples.

Results

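The genes described here encode nucleolar factors of ribosome biogenesis, measured in the polysome-associated RNA of mouse bone marrow-derived macrophages. They are 45 genes listed by name. For each, the probe set carrying its symbol with the highest mean log2 signal over both arrays was taken, which found 44 of the 45 among 22088 genes on the array. Noc2l was not found by its symbol and is not analysed here. The Oasl1-/- group was 1 array of RNA from Oasl1-/- macrophages, and the WT group was 1 array from wild-type macrophages. Both genotypes were on the C57BL/6J strain. All cells had been differentiated over 7 days with L929 supernatant and were then given poly(I:C), a double-stranded RNA made as a mimic of viral RNA, for 12 h at 10 µg/ml. RNA came from fractions 9 to 11 of 16 taken from sucrose gradients (10% to 50%), where mRNAs that carry several ribosomes sediment. Untreated cells and total RNA were not analysed here, so a lower signal could come from less mRNA or from a smaller share of it on polysomes, and these cannot be told apart. How many animals gave marrow is not given in the sources used here, and with 1 array per genotype there was no test and no replicate check for any difference below.

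Ribosomes are assembled in the nucleolus. RNA polymerase I transcribes the precursor of the large rRNAs, and small nucleolar ribonucleoproteins (snoRNPs) direct its modification, the H/ACA class by pseudouridylation and the box C/D class by 2′-O-methylation. Successive protein complexes then fold and cut the precursor into the pre-40S and pre-60S particles that leave the nucleus. Cells that grow or divide make many ribosomes, and the transcription factor Myc is a well-known activator of the genes of this pathway. OASL1, the protein missing in the mutant, is an interferon-induced inhibitor of the translation of the transcription factor IRF7.

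The values are RMA log2 signals, in which a difference of 1 is a 2-fold difference. Probe sets differ in how strongly they bind, so signals were compared between the arrays and not between genes. A gene was taken as measured when the higher of its signals was at least 7, the floor, under which 96.6% of 5222 intron control probe sets fell on the Oasl1-/- array and 97.1% on the WT array. This left 7835 genes, whose median difference (Oasl1-/- minus WT) was -0.09 with an SD over genes of 0.39. Oasl1 itself had a log2 signal of 9.14 on the Oasl1-/- array and 10.70 on the WT array. The labels do not say which part of the gene was deleted, and probes outside it would not report the deletion. Macrophage markers were high, with 10 of 10 past the floor and medians of 11.68 and 11.80 on the Oasl1-/- and WT arrays. None of the T cell, B cell, dendritic cell, fibroblast or erythroid markers passed it, and of 8 neutrophil markers only Csf3r did, at 7.73 on the Oasl1-/- and 6.62 on the WT array.

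Of the 44 factors found, 42 had a lower signal on the Oasl1-/- array, and 17 were at least 1.5-fold lower, with a median difference of -0.44. Over all 22088 genes without a floor, 42.7% were lower and 3.22% at least 1.5-fold lower. With the floor 41 factors remained, of which 39 were lower (60.6% of all genes past the floor were lower), 16 were at least 1.5-fold lower (6.28%) and 1, Dkc1, at least 2-fold lower (0.651%). Wdr43 and Utp3 were the 2 with a higher signal, and none was 1.5-fold higher (5.27%). The median of the 41 was -0.44, a signal of 73.6% of WT, and 37 of them lay below the median difference of all genes. The 41 signals ran from 6.44 to 10.65 on the Oasl1-/- array, with 9 of them below the floor, and from 7.06 to 10.93 on the WT array. Those 9 passed only through their WT signal and so had to be lower. Among the 32 factors above the floor on both arrays 30 were lower (59.5% of 7177 genes), and 10 were at least 1.5-fold lower (4.67%), with a median of -0.35.

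**Figure D1:**
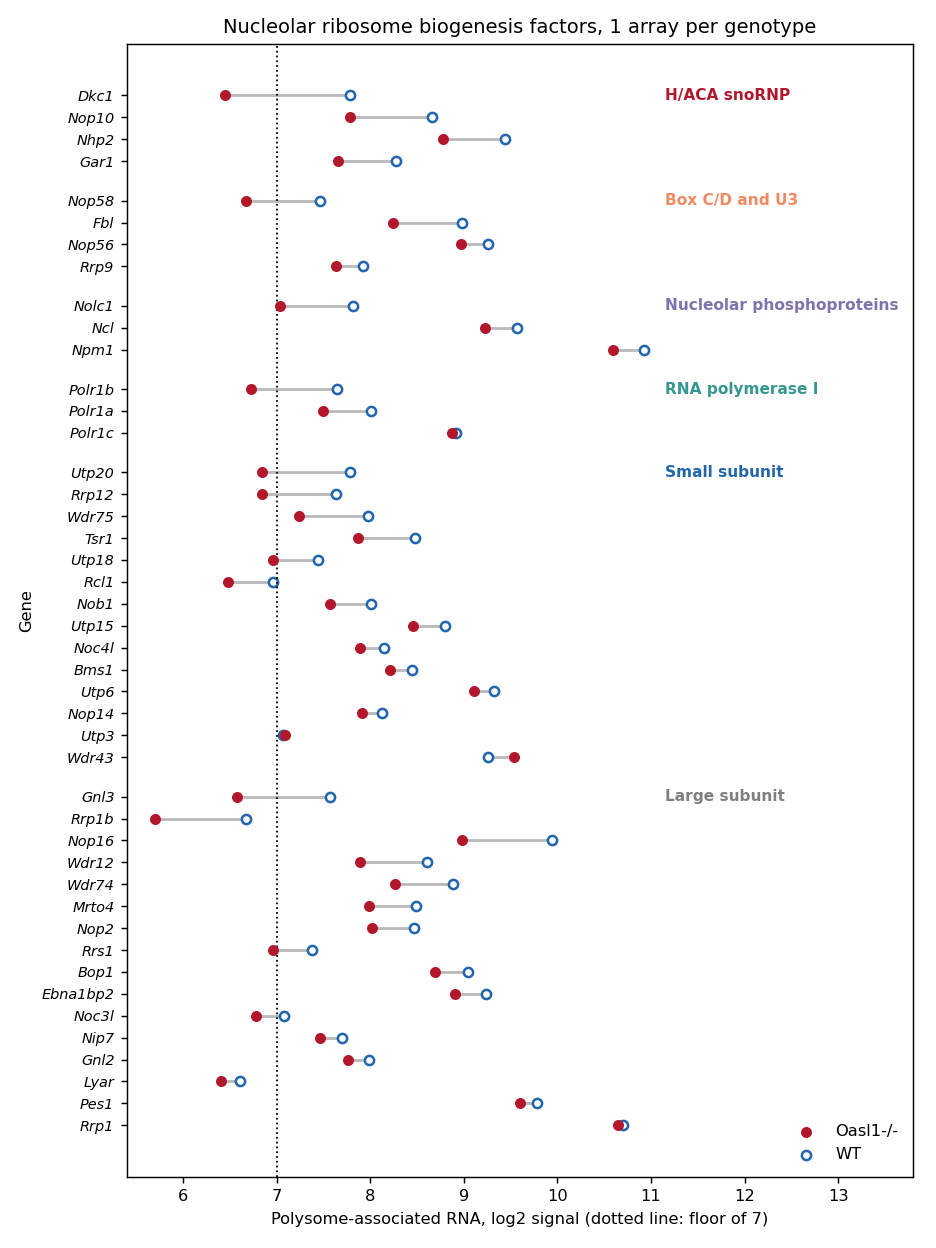
Log2 signal (horizontal axis) of each of the 44 factors found (rows), grouped by role and ordered by difference within a role. Filled points are the Oasl1-/- array and open points the WT array, 1 array each, and the dotted line is the floor of 7. The filled point lies left of the open one in 42 of 44 rows, with Wdr43 and Utp3 as the exceptions.

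The genes of the H/ACA snoRNP proteins had lower signals together. Dyskerin, encoded by Dkc1, is the pseudouridine synthase of these particles and also part of telomerase. The log2 signal of Dkc1 was 6.44 on the Oasl1-/- array and 7.78 on the WT array, a difference of -1.34 that left 39.5% of the WT signal. Only 7 of the 7835 genes had a lower difference, but the Oasl1-/- value lay under the floor, so the size of the difference is uncertain. Dkc1 passed the floor only through its WT signal and so had to be lower. The gene remained at least 2-fold lower after centring, loess, quantile normalization and with a pseudocount of 32, settings that did not change which genes passed. With a floor of 8, or with the floor required on both arrays, Dkc1 was not kept. Its 28 probes lie at chromosome X, 72341255 to 72355109, on the plus strand (NCBIM37). Nop10, a small protein that docks on dyskerin, had 7.79 on the Oasl1-/- and 8.66 on the WT array, a difference of -0.87. Nhp2, the RNA-binding core protein, had 8.77 on the Oasl1-/- and 9.44 on the WT array, a difference of -0.67. Gar1, which completes the mature particle, had 7.65 on the Oasl1-/- and 8.28 on the WT array, a difference of -0.63. All 4 were thus at least 1.5-fold lower, with Gar1 so on the deposited scale but between -0.57 and -0.50 under those 4 rescalings. The probe sets of Nop10, Nhp2 and Gar1 were above the floor on both arrays.

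The genes of box C/D proteins had lower signals to unequal degrees. Nop58 and Nop56 are paralogous scaffold proteins of the same particle. Nop58 had 6.67 on the Oasl1-/- and 7.46 on the WT array, a difference of -0.80, which was -0.58 and just under 1.5-fold after loess. Nop56 had 8.97 on the Oasl1-/- and 9.26 on the WT array, a difference of -0.30. Of the pair only Nop58 passed 1.5-fold, and its Oasl1-/- value was below the floor. Fbl, the fibrillarin methyltransferase, differed by -0.74, with 8.24 on the Oasl1-/- and 8.98 on the WT array. This probe set lies on chromosome 17, whereas RefSeq (GRCm38.p6) has Fbl on chromosome 7. A second probe set at chromosome 7, 28954729 to 28964288 (NCBIM37, plus strand), differed by -0.44, with 7.70 on the Oasl1-/- and 8.14 on the WT array. Both were lower, and 1 of the 2 was at least 1.5-fold lower. Rrp9, the protein that binds the U3 snoRNA, differed by -0.29.

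Nolc1 (Nopp140) is a chaperone of snoRNPs, and nucleolin (Ncl) and nucleophosmin (Npm1) are abundant proteins of the nucleolus that act in rRNA transcription, early processing and particle export. Nolc1 had 7.03 on the Oasl1-/- and 7.82 on the WT array, a difference of -0.79. Ncl differed by -0.35, with 9.22 on the Oasl1-/- and 9.57 on the WT array. The brightest Npm1 probe set had 10.59 on the Oasl1-/- and 10.93 on the WT array, a difference of -0.33. Nolc1 alone of these 3 was at least 1.5-fold lower. For Npm1 the choice of probe set mattered. The brightest spans 754 bases on chromosome 10, and 2 others lie on chromosomes 10 and 9, with differences of -0.44 and -0.33, whereas RefSeq has the gene on chromosome 11. The 1 probe set on chromosome 11 has 8 probes and differed by -0.65, with 8.78 on the Oasl1-/- and 9.43 on the WT array. All 4 Npm1 probe sets were lower on the Oasl1-/- array, and only that on chromosome 11 was at least 1.5-fold lower.

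Of the 3 RNA polymerase I subunits among the factors, 1 was at least 1.5-fold lower. Polr1b, the second-largest subunit, had 6.73 on the Oasl1-/- and 7.65 on the WT array, a difference of -0.92 with the Oasl1-/- value below the floor. Polr1a, the largest subunit, had 7.49 on the Oasl1-/- and 8.01 on the WT array, a difference of -0.51. Polr1c, which polymerase III also uses, differed by -0.04, with 8.88 on the Oasl1-/- and 8.91 on the WT array. Its sign turned after centring (0.02) and after loess (0.03).

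**Figure D2:**
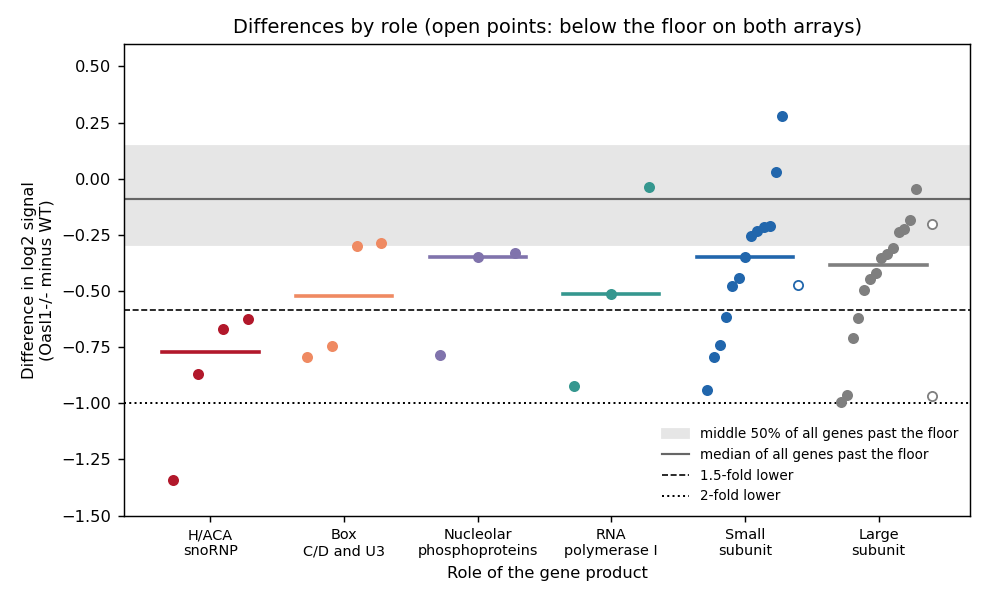
Difference in log2 signal, Oasl1-/- minus WT (vertical axis), of each factor, grouped by role (horizontal axis). Filled points are the 41 factors past the floor, open points the 3 below it on both arrays, and coloured bars the median of the filled points. The grey line and band are the median (-0.09) and the middle 50% (-0.30 to 0.14) of all 7835 genes. On the deposited scale all 4 H/ACA points lie under the dashed line of 1.5-fold, while every other role has points on both sides of it.

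The small subunit group holds parts of the processome, the large complex on the nascent rRNA, and factors of the pre-40S particle. Of its 14 genes 13 passed the floor, with a median of -0.35. Lower signals were measured for 11 and differences of at least 1.5-fold for 4 of them. Over all genes past the floor these shares were 60.6% and 6.28%. Utp20, Rrp12 and Utp18 passed only through their WT signal and so had to be lower. Utp20, a scaffold protein, had 6.84 on the Oasl1-/- and 7.78 on the WT array, a difference of -0.94. Rrp12, an export factor, had 6.84 on the Oasl1-/- and 7.63 on the WT array, a difference of -0.79. Both Oasl1-/- values were below the floor. Wdr75, a processome subunit, had 7.23 on the Oasl1-/- and 7.97 on the WT array, a difference of -0.74. Tsr1, a pre-40S assembly factor, had 7.86 on the Oasl1-/- and 8.48 on the WT array. Its difference of -0.62 came to between -0.56 and -0.49 under the same 4 rescalings, short of 1.5-fold. The next were Utp18 at -0.48, Nob1, the nuclease that finishes 18S rRNA, at -0.44, and Utp15 at -0.35.

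At the other end of this group, Wdr43 stood apart. Wdr43 belongs to the subcomplex of the processome that binds the precursor first, as Utp15 and Wdr75 do. Its log2 signal was 9.54 on the Oasl1-/- and 9.26 on the WT array, a difference of 0.28 on a probe set of 37 probes at chromosome 17, 71965235 to 72007235 (NCBIM37, plus strand), while 83.9% of all genes past the floor had a lower difference. Wdr43 was thus the highest of the 44 factors, with its partners Wdr75 and Utp15 lower. Utp3 was level, at 7.09 on the Oasl1-/- and 7.06 on the WT array, just inside the floor. The scaffold protein gene Nop14 (-0.21), Utp6 (-0.22), the GTPase gene Bms1 (-0.23) and Noc4l (-0.25) had small negative differences within the middle 50% of all genes. Rcl1, the partner of Bms1, was just outside the floor at 6.48 on the Oasl1-/- and 6.96 on the WT array.

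Of the large subunit factors 16 of 17 were found and 14 passed the floor. All 14 were lower on the deposited scale and 4 at least 1.5-fold lower, with a median of -0.39. Over all genes past the floor these shares were 60.6% and 6.28%. Gnl3, Rrs1 and Noc3l passed only through their WT signal and so had to be lower. Gnl3, the nucleolar GTPase nucleostemin, had 6.58 on the Oasl1-/- and 7.57 on the WT array, a difference of -0.99, with the Oasl1-/- value below the floor. Nop16 had 8.98 on the Oasl1-/- and 9.94 on the WT array, a difference of -0.96 that left 51.4% of the WT signal. Among the 32 factors above the floor on both arrays, Nop16 had the lowest difference. Wdr12 differed by -0.71 on a probe set on chromosome 7, and by -0.83 on its probe set at chromosome 1, where RefSeq has the gene. That probe set was below the floor on both arrays, at 6.14 on the Oasl1-/- and 6.97 on the WT array. Wdr74 had 8.26 on the Oasl1-/- and 8.88 on the WT array, and its difference of -0.62 lay between -0.57 and -0.53 under the 4 rescalings.

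Pes1, Bop1 and Wdr12 form the PeBoW complex, which is needed to process the precursors of the 60S subunit, and their differences were unequal. Pes1 had 9.59 on the Oasl1-/- and 9.78 on the WT array, a difference of -0.18. Bop1 had 8.69 on the Oasl1-/- and 9.05 on the WT array, a difference of -0.35. Of this trio, then, Wdr12 alone was at least 1.5-fold lower, by a probe set away from its gene. Its probe set on chromosome 1 was below the floor on both arrays, so this contrast within the trio is uncertain. Rrp1 was close to level, at 10.65 on the Oasl1-/- and 10.70 on the WT array, a difference of -0.05 that became 0.01 after centring. Its paralog Rrp1b differed by -0.97 but was below the floor on both arrays, at 5.70 on the Oasl1-/- and 6.67 on the WT array, so this value is not interpretable as a level. The remaining factors past the floor were Mrto4 (-0.50), Nop2, an rRNA methyltransferase (-0.45), Rrs1 (-0.42), Ebna1bp2 (-0.33), Noc3l (-0.31), Nip7 (-0.24) and the GTPase gene Gnl2 (-0.22). Mrto4 was measured on chromosome 12, and its probe set on chromosome 4, where RefSeq has it, differed by -0.47. Lyar was below the floor on both arrays.

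The members whose probe set lies away from the gene, namely Fbl, Npm1, Wdr12 and Mrto4, have those probe sets on spans of 957, 754, 1350 and 949 bases. The probe sets on the gene's own chromosome span 9560, 10567, 21308 and 4871 bases. Near-identical copies can share signal between such probe sets, so single values of these 4 genes are uncertain. Without these 4, 35 of the 37 remaining factors past the floor were lower, 14 of them by at least 1.5-fold, against 6.26% of genes past the floor, with a median of -0.42.

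Differences were larger among dim members than among bright ones. Of 17 members with a mean log2 signal from 7 to 8, 9 were at least 1.5-fold lower and the median was -0.63, against 8.77% and -0.13 for the 2246 genes in that range. Of 13 members from 8 to 9, 5 were at least 1.5-fold lower and the median was -0.45, against 5.65% and -0.10 over 2142 genes. Of the 10 members at 9 or above, 2 were at least 1.5-fold lower, Nop16 and Nhp2, and the median was -0.32, against 3.29% and -0.03 over 3135 genes. In each of these 3 ranges the median of the members lay below that of all genes. Across the 41 members the correlation of difference with mean signal was 0.41 (Pearson) and 0.39 (Spearman), and across the 7835 genes it was 0.15 and 0.18. These describe genes that share the same hybridisations and are not independent replicates. The part of signal in the size of the differences was not tested.

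**Figure D3:**
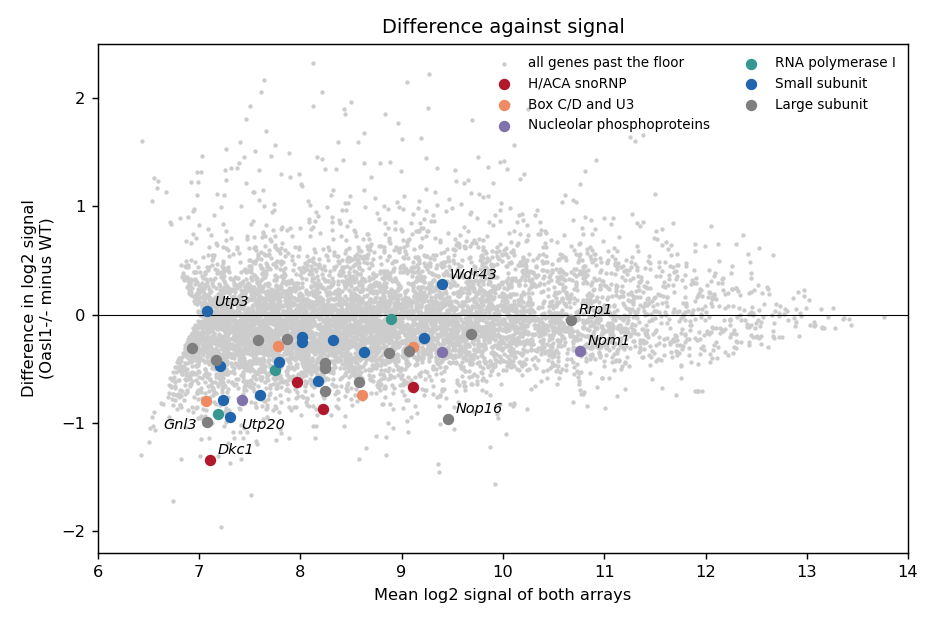
Difference in log2 signal, Oasl1-/- minus WT (vertical axis), against the mean log2 signal of both arrays (horizontal axis). Grey points are the 7835 genes past the floor and coloured points the 41 factors by role. Most factors lie below 0 along the whole range, from Dkc1 at -1.34 to Wdr43 at 0.28, with the lowest ones at the dim end and Nop16 as a brighter exception.

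Other genes of the pathway, taken from 5 lists, were lower by smaller amounts. Of 107 such genes past the floor 93 had a lower signal in Oasl1-/- cells, where 60.6% of all genes were lower. The median difference was -0.31 and none was 2-fold different. Those below the floor on the Oasl1-/- array passed only through their WT signal and so had to be lower, in each list. Among the 93 genes of these lists above the floor on both arrays, 10 were at least 1.5-fold lower (4.67% of all such genes), with a median of -0.29. Differences of at least 1.5-fold lower were measured for 16 of the 107 (15%), against 6.28% of all genes. This count fell to 10 of 107 after centring (4.61% of all genes), 6 after loess (3.40%), 6 after quantile normalization (4.01%) and 7 with the pseudocount (4.12%). In the small subunit list 31 of 34 were lower, 4 of them by at least 1.5-fold (median -0.32). Its largest differences were those of the rRNA acetyltransferase gene Nat10 (-0.82), of Aatf (-0.71) and of Bysl (-0.60), with Nat10 and Aatf below the floor on the Oasl1-/- array. In the large subunit list 33 of 39 were lower, 4 of them by at least 1.5-fold (median -0.27), led by Ppan (-0.83), the giant remodelling ATPase gene Mdn1 (-0.80) and Rrp15 (-0.73), all 3 below the floor on the Oasl1-/- array. The remaining gene at least 1.5-fold lower was Heatr1 (-0.59) in the small subunit list and Pwp1 (-0.60) in the large subunit list, both named after their values were seen. At 1.5-fold these were 11.8% and 10.3% of the genes, where 30.8% of the small subunit factors and 28.6% of the large subunit factors had such a difference. Members and lists were chosen with earlier results of these data known, so this contrast is not independent of the values.

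For the next 3 lists the shares over all genes past the floor were again 60.6% lower and 6.28% at least 1.5-fold lower. The snoRNP assembly list had 10 of 11 genes lower and 1 at least 1.5-fold lower (9.09%, median -0.25). That gene was Nhp2l1, which encodes the protein that opens box C/D assembly, with 10.42 on the Oasl1-/- and 11.11 on the WT array, a difference of -0.69. Tgs1, which adds the cap of some snoRNAs, had 7.41 on the Oasl1-/- and 6.94 on the WT array, a difference of 0.46. It passed the floor only through its Oasl1-/- signal and so had to be higher. Ruvbl2, an assembly ATPase, differed by -0.44. In the list of rDNA transcription 11 of 14 genes were lower, 4 of them by at least 1.5-fold (median -0.42). The largest differences were those of Polr2k (-0.86, below the floor on the Oasl1-/- array), Polr2f (-0.67) and Polr2h (-0.65), which encode subunits shared by RNA polymerases I, II and III, so the list does not stand for polymerase I alone. The fourth was Polr1d (-0.61), which like Polr1c is shared with polymerase III, and which was named after its value was seen. The RNA exosome, which trims rRNA precursors and degrades other nuclear RNA, had 8 of 9 genes lower and 3 at least 1.5-fold lower (median -0.41), namely Exosc8 (-0.67), Exosc1 (-0.63) and Exosc2 (-0.59). All 3 were above the floor on both arrays. These calls hold on the deposited scale, where 1.5-fold is a log2 difference of 0.585. Over all the lists together the count fell from 16 to 10 of 107 after centring, so calls near this size, such as that of Exosc2, are uncertain.

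Cytosolic ribosomal protein genes, the products that these factors assemble with rRNA, were lower by similar median amounts but seldom by 1.5-fold. All 77 past the floor were lower on the deposited scale, against 60.6% of all genes. Only 5 were at least 1.5-fold lower, 6.49% of them against 6.28% of all genes, and the median was -0.32. Of the 41 biogenesis factors, chosen with earlier results of these data known, 39.0% were at least 1.5-fold lower. The sets were not matched for signal. Among all genes such differences were rarer at high signal, with 8.77% from 7 to 8 and 3.29% at 9 or above. With 1 array per genotype the difference between these sets of genes could not be tested over samples.

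**Figure D4:**
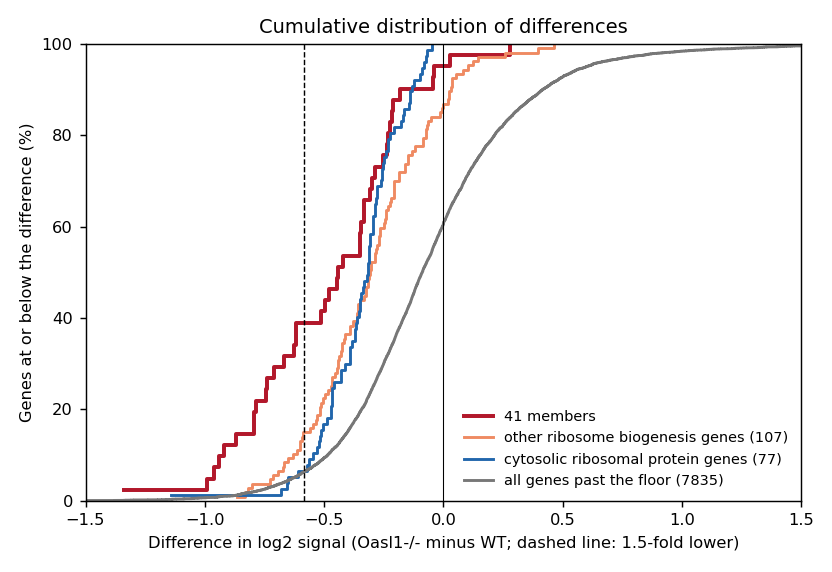
Cumulative share of genes in % (vertical axis) at or below each difference in log2 signal, Oasl1-/- minus WT (horizontal axis), for 41 biogenesis factors, 107 other genes of ribosome biogenesis, 77 cytosolic ribosomal protein genes and all 7835 genes past the floor. At the dashed line of 1.5-fold the curves stand at 39.0%, 15%, 6.49% and 6.28%.

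The annotation in the deposited table carried a term of nucleolus, rRNA processing or ribosome biogenesis for 29 of the 41 factors. The factors were listed by name for this role, so the terms are no separate support. Genes outside the 45 with these terms were mostly lower too, where 60.6% of all genes past the floor were lower. Of 82 with the nucleolus term 66 were lower, 6 of them by at least 1.5-fold (7.32%, median -0.25), and of 38 with the rRNA processing term 34 were lower, 6 of them by at least 1.5-fold (15.8%, median -0.33). Of 31 with the ribosome biogenesis term 25 were lower, 3 of them by at least 1.5-fold (9.68%, median -0.30). The nucleolus term alone was thus close to the background of 6.28% at 1.5-fold.

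The promoters of the factors were searched for CACGTG, the E-box bound by Myc with its partner Max, and for the variant CACGCG, on both strands, in the 250 bases before to 50 bases after the annotated start (RefSeq, GRCm38.p6). Myc itself had a log2 signal of 5.88 on the Oasl1-/- and 7.61 on the WT array, and so was below the floor on the Oasl1-/- array. The table held promoters of 34 of the 41 factors. CACGTG was found for 6 of the 34 (17.6%), against 13.1% of 5560 genes past the floor with a promoter and 8.09% of all 27025 genes with one. CACGCG was found for 9 of the 34 (26.5%), against 20.6% of the 5560 genes and 10.5% of the 27025. Among 87 other genes of the pathway past the floor with a promoter, the shares were higher, at 19.5% for CACGTG and 32.2% for CACGCG. The 2 motifs overlapped in none of these promoters, as their letters do not allow an overlap. Factors with CACGTG had a median difference of -0.46 and those without it one of -0.47. For CACGCG the medians were -0.35 with it and -0.48 without it.

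Promoters are shown for the H/ACA set, whose members were lower together, and for the CACGTG-holding factors with the lowest and the highest difference, Utp20 and Wdr43, a choice made after their values were seen. Each is read 5′ to 3′ on the strand of its gene, and capitals mark CACGTG, or CACGCG on either strand. Dkc1 lies at chrX:75095604-75095903 (plus strand), Nop10 at chr2:112261676-112261975 (plus), Nhp2 at chr11:51619523-51619822 (plus), Gar1 at chr3:129831347-129831646 (minus), Utp20 at chr10:88826765-88827064 (minus) and Wdr43 at chr17:71615965-71616264 (plus).
Dkc1: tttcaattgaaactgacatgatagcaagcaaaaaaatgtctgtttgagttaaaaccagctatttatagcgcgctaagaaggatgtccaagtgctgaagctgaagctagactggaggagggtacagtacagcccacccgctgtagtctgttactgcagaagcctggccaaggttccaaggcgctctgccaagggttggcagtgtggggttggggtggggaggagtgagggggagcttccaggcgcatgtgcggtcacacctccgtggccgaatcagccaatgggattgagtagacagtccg
Nop10: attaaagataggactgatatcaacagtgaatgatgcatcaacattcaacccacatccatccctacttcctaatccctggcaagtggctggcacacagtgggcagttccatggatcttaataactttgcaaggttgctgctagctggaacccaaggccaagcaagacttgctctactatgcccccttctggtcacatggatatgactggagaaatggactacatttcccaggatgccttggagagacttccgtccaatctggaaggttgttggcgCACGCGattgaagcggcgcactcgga
Nhp2: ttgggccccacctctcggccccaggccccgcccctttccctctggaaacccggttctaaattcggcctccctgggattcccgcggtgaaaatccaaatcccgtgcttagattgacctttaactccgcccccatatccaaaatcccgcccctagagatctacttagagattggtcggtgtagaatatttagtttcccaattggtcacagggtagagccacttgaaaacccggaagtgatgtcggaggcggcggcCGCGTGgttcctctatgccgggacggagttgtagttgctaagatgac
Gar1: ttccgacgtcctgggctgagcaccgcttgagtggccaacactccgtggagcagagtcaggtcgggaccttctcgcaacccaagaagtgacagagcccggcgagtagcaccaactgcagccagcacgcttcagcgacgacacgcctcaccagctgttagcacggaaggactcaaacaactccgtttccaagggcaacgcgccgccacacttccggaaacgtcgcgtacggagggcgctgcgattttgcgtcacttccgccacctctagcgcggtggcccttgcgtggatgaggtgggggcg
Utp20: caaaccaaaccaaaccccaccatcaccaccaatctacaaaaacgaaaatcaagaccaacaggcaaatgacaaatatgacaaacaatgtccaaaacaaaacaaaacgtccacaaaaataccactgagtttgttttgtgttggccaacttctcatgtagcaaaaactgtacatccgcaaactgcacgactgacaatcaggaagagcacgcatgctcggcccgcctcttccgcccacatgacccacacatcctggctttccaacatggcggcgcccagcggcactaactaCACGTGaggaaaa
Wdr43: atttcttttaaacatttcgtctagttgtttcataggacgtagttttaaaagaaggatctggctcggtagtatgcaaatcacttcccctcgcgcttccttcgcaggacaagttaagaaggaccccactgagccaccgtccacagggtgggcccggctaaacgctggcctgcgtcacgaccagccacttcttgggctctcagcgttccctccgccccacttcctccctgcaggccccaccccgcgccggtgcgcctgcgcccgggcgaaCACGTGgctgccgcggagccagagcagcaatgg
Dkc1 and Gar1 hold neither motif in this window. Nop10 and Nhp2 hold CACGCG with its first base 24 and 3 bases after the start. Utp20 (difference -0.94) and Wdr43 (0.28) both hold CACGTG, 37 and 17 bases after the start, and differed in opposite directions. These matches describe letters only, and binding was not measured here.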

How the data were processed

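RNA of gradient fractions 9 to 11 was hybridised to Affymetrix Mouse Gene 1.0 ST arrays, 1 per genotype, and samples were grouped by the genotype in the labels. The deposited table gives the log2 signal of 35556 probe sets per array. RMA and GCOS are named per the submitters' processing notes, and the series design text adds Expression Console (1.1) and affy (2.9.2) in R. The deposited log2 ratio was the Oasl1-/- minus the WT signal in all 35556 rows, and the deposited fold, a linear ratio, was its unsigned form (relative tolerance 0.0001). A second deposited table held identical signals. The deposited counts of probes per probe set were copied. File coordinates are on NCBIM37.

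Symbols came from the deposited table, and 25465 probe sets with 1 symbol gave 22088 genes. Counts at 1.5-fold and 2-fold are size rules, with no p-value. Members, lists and rules were chosen with earlier results of these data known. The named genes are all members found, and the 3 genes with the largest absolute difference of each other list. The planned rule for printing promoters, members at least 2-fold lower with CACGTG, took none. The ribosomal protein set was defined by symbol (Rpl, Rps and relatives). The steps were tested on simulated data and run in Python 3.11.15 with pandas 2.3.3 and statsmodels 0.14.6. Alternatives were a floor of 8 or none, centring each array, loess (span 0.3), quantile normalization, a pseudocount of 32, and the mean of all probe sets, and the closing section gives their effect. The number of arrays limits the precision.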

Additional observations from a re-analysis of the deposited data

How the results depend on the processing

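The median difference of the factors stayed negative under every alternative run, from -0.44 without a floor to -0.31 after loess. It was -0.38 after centring, -0.35 after quantile normalization and -0.39 with a pseudocount of 32, while the median of all genes stood at -0.03, -0.04 and -0.08. The number at least 1.5-fold lower was 12 of 41 after loess and 13 of 41 after centring, quantile normalization or the pseudocount, with 3.40%, 4.61%, 4.01% and 4.12% of all genes. With the mean of all probe sets the median was -0.44 and 16 of 41 were at least 1.5-fold lower (5.97% of genes). A floor of 8 left 26 factors, of which 25 were lower, 8 at least 1.5-fold lower and 0 at least 2-fold lower, since Dkc1 was not among them, where 58.2%, 5.17% and 0.517% of all genes were so. Restricting to genes above the floor on both arrays, chosen after seeing the data, left 10 of 32 at least 1.5-fold and 0 at least 2-fold lower (4.67% and 0.32% of all genes). A floor of 7 on the mean signal, also added, kept 40 factors with 16 at least 1.5-fold lower (5.60% of genes). The probe set on the gene's own chromosome, added too, gave 15 of 40 (6.27% of genes).

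For the other pathway genes the number at least 1.5-fold lower was 16 of 107 as deposited (6.28% of all genes), 10 after centring (4.61%), 6 after loess (3.40%), 6 after quantile normalization (4.01%), 7 with the pseudocount (4.12%), 9 of 66 with a floor of 8 (5.17%) and 10 of 93 above the floor on both arrays (4.67%). With the mean of all probe sets it was 13 of 103 (5.97%). The cause was not tested. Among 246 single differences recomputed, those of at least 1.5-fold on the deposited scale kept their sign. The pseudocount cannot turn a sign, and centring moves all differences by the same small amount, so this was largely fixed in advance. Among the smaller differences the sign turned for Rrp1 after centring and for Polr1c after centring and after loess. The 1.5-fold call changed under at least 1 setting for Nop58, Fbl, Npm1, Gar1, Wdr74 and Tsr1. Older symbols gave no value for Noc2l. No paired analysis was possible because there was 1 array per genotype, and no array could be left out for the same reason.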
